A study of Mus musculus with 19 samples.

Results

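The genes described here are 48 genes of DNA replication and mitosis, measured in whole mammary tumours from mice. They were taken from the deposited table of 26796 genes by matching each Ensembl identifier to a fixed set of gene symbols, with the kinesins left out. All 48 were found once each, and all 48 passed the filter on low counts in each comparison below. By the phase in which the products are known to act, 19 are S phase genes, 25 are G2/M genes and 4 (Ccnd1, Cdk2, Ccna2 and Mybl2) belong to another phase or to more than 1. Met1 cells, a mouse mammary carcinoma line, had been grafted to form the tumours. All of the mice received extracellular vesicles shed by neutrophils, and the groups differ in what those neutrophils had been given: the solvent DMSO for 9 tumours and 27-hydroxycholesterol (27HC), an oxidised cholesterol that binds oestrogen receptors, for 10 tumours. No group lacks vesicles, so the comparison is of 2 kinds of vesicle and not of vesicles with none. The labels do not give the strain, age or sex of the mice or the dose of vesicles, and do not state that each tumour came from its own mouse. What the p-values take as error is thus the spread among these samples, and part of it may be technical. Each title carries a first number, 1 or 2, whose meaning is not given, and a second number. It is 1 for 5 DMSO and 5 27HC tumours and 2 for 4 DMSO and 5 27HC tumours.

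A cell commits to division when D-type cyclins and their kinases release the E2F transcription factors, which switch on the genes for loading the replicative helicase, for making deoxynucleotides and for copying DNA. Later in the cycle the factors Mybl2 and Foxm1 switch on a second set, the cyclins, kinases and structural proteins with which the cell condenses, aligns and separates its chromosomes and then divides. Because most products of both sets are made only in dividing cells, their RNA is widely used to judge how much of a tumour is proliferating. In RNA from whole tissue, fewer dividing cells and less RNA per dividing cell cannot be told apart.

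The 2 waves leave known marks in the promoters, which are shown here because the members are grouped by wave below. E2F factors bind sites such as TTTCGCGC, TTTGGCGC, TTTCCCGC and TTTGCCGC, and the complex that acts late in the cycle binds the element TTTGAA or TTCGAA, called the cell cycle homology region (CHR). The RefSeq promoters of build GRCm38.p6, from 250 bases before to 50 after each start, held 40 of the 48 genes, and both strands were searched. A CHR element was present in 17 of 22 G2/M genes and in 4 of 16 S phase genes, against 21.7% of the promoters of all 27025 genes. One of the 4 E2F sites was present in 7 of 16 S phase genes and in 2 of 22 G2/M genes, against 2.60% of all genes. CCAAT, bound by NF-Y, was present in 18 of 22 G2/M genes and 10 of 16 S phase genes, against 41.1%. These are matches of letters and not tested sites. The 160 bases before the start are given for 2 helicase genes with E2F sites, for Cdk1, which holds both kinds, and for 3 mitotic genes with CHR elements, with E2F and CHR letters in capitals, and adjoining capitals may belong to overlapping sites on the 2 strands.
Mcm5, chr8:75109349-75109508, strand +: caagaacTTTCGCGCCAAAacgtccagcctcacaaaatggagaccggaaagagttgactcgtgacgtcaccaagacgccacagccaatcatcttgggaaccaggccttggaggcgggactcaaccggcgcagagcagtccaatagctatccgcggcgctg
Mcm6, chr1:128359706-128359865, strand -: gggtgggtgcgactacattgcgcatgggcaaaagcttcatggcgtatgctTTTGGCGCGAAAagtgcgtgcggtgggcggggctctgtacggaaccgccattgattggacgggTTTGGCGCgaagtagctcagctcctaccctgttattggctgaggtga
Cdk1, chr10:69352913-69353072, strand -: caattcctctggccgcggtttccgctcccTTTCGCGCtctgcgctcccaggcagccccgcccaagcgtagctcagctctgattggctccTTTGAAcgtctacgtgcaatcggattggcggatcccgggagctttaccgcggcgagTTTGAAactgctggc
Cdc20, chr4:118437344-118437503, strand -: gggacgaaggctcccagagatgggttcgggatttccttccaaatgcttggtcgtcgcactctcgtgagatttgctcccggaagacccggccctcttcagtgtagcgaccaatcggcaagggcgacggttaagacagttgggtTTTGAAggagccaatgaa
Mki67, chr7:135716380-135716539, strand -: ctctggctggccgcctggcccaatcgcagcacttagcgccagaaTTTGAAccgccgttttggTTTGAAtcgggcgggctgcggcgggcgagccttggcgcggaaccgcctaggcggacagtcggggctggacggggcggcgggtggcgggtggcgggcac
Top2a, chr11:99024190-99024349, strand -: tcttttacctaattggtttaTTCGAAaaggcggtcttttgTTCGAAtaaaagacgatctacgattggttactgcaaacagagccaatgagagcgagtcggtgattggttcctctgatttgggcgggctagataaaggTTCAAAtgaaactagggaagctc

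Each tumour had between 28139419 and 41179056 expected counts, the model-based read counts that the submitters deposited. Levels are given as CPM, the counts scaled to a common library size by TMM. Apart from Krt18, the epithelial markers of the labelled tissue were low, with a median over the 19 tumours of at most 6.98 CPM. Epcam was at 2.13 CPM, Krt8 at 3.11 CPM and Cdh1 at 6.98 CPM, whereas Krt18 was at 86.9 CPM. The 14 epithelial markers together had a median of 129 CPM, so their sums rest largely on Krt18. The libraries differed in base composition: the mean GC content of the transcripts, weighted by CPM, was 49.4% to 49.7% in 5 libraries and 50.9% to 52.7% in the 14 others. The 5 low-GC libraries are DMSO tumours 1_5 and 2_3 and 27HC tumours 1_3, 1_5 and 2_3, so both treatments and both first numbers have some. Summed markers of skeletal muscle ranged from 19.2 to 5298 CPM in the 5 and from 7.0 to 1643 CPM in the others, those of B and plasma cells from 24.9 to 140 CPM against 22.5 to 83.5 CPM, and those of epithelium from 50.3 to 120 CPM against 88.6 to 170 CPM. The 6 salivary gland genes in the table summed to 6270 CPM in DMSO tumour 1_5 and to 950 CPM in 27HC tumour 2_2, and to at most 12.6 CPM in any other tumour. With DMSO and 27HC the summed muscle markers ranged from 8.49 to 1643 CPM and from 7.0 to 5298 CPM, those of T and NK cells from 70.8 to 251 and from 59.9 to 180 CPM, those of macrophages from 1532 to 2665 and from 1350 to 2337 CPM, those of neutrophils from 57.2 to 117 and from 61.9 to 173 CPM, those of fibroblasts from 2066 to 3626 and from 2377 to 5079 CPM, those of endothelium from 139 to 224 and from 138 to 217 CPM, and those of fat cells from 181 to 450 and from 75.1 to 451 CPM. Of these tissues, muscle alone entered a fit as a covariate, with values given below, and the part of the others in the results was not tested.

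The genes were expressed at levels that spanned a wide range. To compare genes, levels were divided by the length of the longest coding transcript. It need not be the form expressed, so the comparison is approximate. Per kilobase, the highest mean level over the 19 tumours was that of Ccnd1, the D-type cyclin of G1, at 402 CPM per kb. The lowest was that of Ccne2, an E-type cyclin, at 3.04 CPM per kb. Among the replication genes Tk1, which recycles thymidine, stood at 84.3 CPM per kb and Pcna, the sliding clamp of the polymerases, at 76.2 CPM per kb, whereas Cdc6, a helicase loader, stood at 6.31 CPM per kb. Among the mitotic genes Ube2c, a ubiquitin-conjugating enzyme of the anaphase-promoting complex, stood at 58.4 CPM per kb, Top2a, the topoisomerase that untangles sister chromosomes, at 57.4, and Cenpf, a kinetochore protein, at 4.26. The members also differed in how much they varied. Mki67, which coats mitotic chromosomes and is the usual proliferation marker, had the largest ratio of the highest to the lowest tumour, 23.6-fold, followed by Ccne2 with 18.2-fold and the kinetochore motor Cenpe with 13.7-fold. The lowest tumour for all 3 was DMSO tumour 1_2, and without it the ratios were 7.71-fold for Mki67, 9.09-fold for Ccne2 and 7.09-fold for Cenpe. That tumour had the highest library GC content, 52.7%, and the highest tumour for each of the 3 was a low-GC library. The SD of log2 CPM was 1.03 for Mki67, 1.05 for Ccne2 and 0.95 for Cenpe. After the GC correction described below it was 0.85, 0.60 and 0.56. At the other end, Cdk2, a kinase of S phase, varied 1.48-fold and Aurkb, a mitotic kinase, 1.51-fold over the same tumours.

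The 48 genes divided by the base composition of their transcripts in the low-GC libraries, with genes of both phases on either side. In the 5 low-GC libraries 21 of the 48 genes had a higher mean log2 CPM than in the 14 others and 27 a lower one. Phase and composition were linked: the median transcript GC content was 51.9% for the 19 S phase genes and 47.3% for the 25 G2/M genes. In these libraries 14 of the 19 S phase genes were lower, and 15 of the 25 G2/M genes were higher. Of the 18 genes whose longest coding transcript has under 47% GC, 17 were higher, all but Rrm2. Of the 15 genes with 47% to 52% GC, 4 were higher, and of the 15 genes with at least 52% GC, 0 were. Among all genes tested the shares that were higher in these 3 classes were 92.2%, 57.7% and 20.0%, so the members of the middle class were mostly lower where genes at large were more often higher. Across the members, Pearson's r between transcript GC content and the log2 difference of the low-GC libraries was -0.88, and across 15406 genes it was -0.71 (Spearman's rho -0.91 and -0.73). These libraries were singled out by a value computed from the same counts, so the coefficients are a description, and genes are not independent replicates. For 17 of the 48 genes the 5 low-GC libraries did not overlap the 14 others, which is 35.4% of the members against 23.9% of all genes tested. Higher without overlap were Mki67, Top2a, Bub1, Cenpe, Ncapg, Nusap1, Ect2 and Anln, all G2/M genes. Lower without overlap were Mcm2, Mcm5, Mcm7, Ccne1 and E2f1 of S phase, Foxm1, Plk1 and Cdc20 of G2/M, and Ccnd1.

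**Figure D1:**
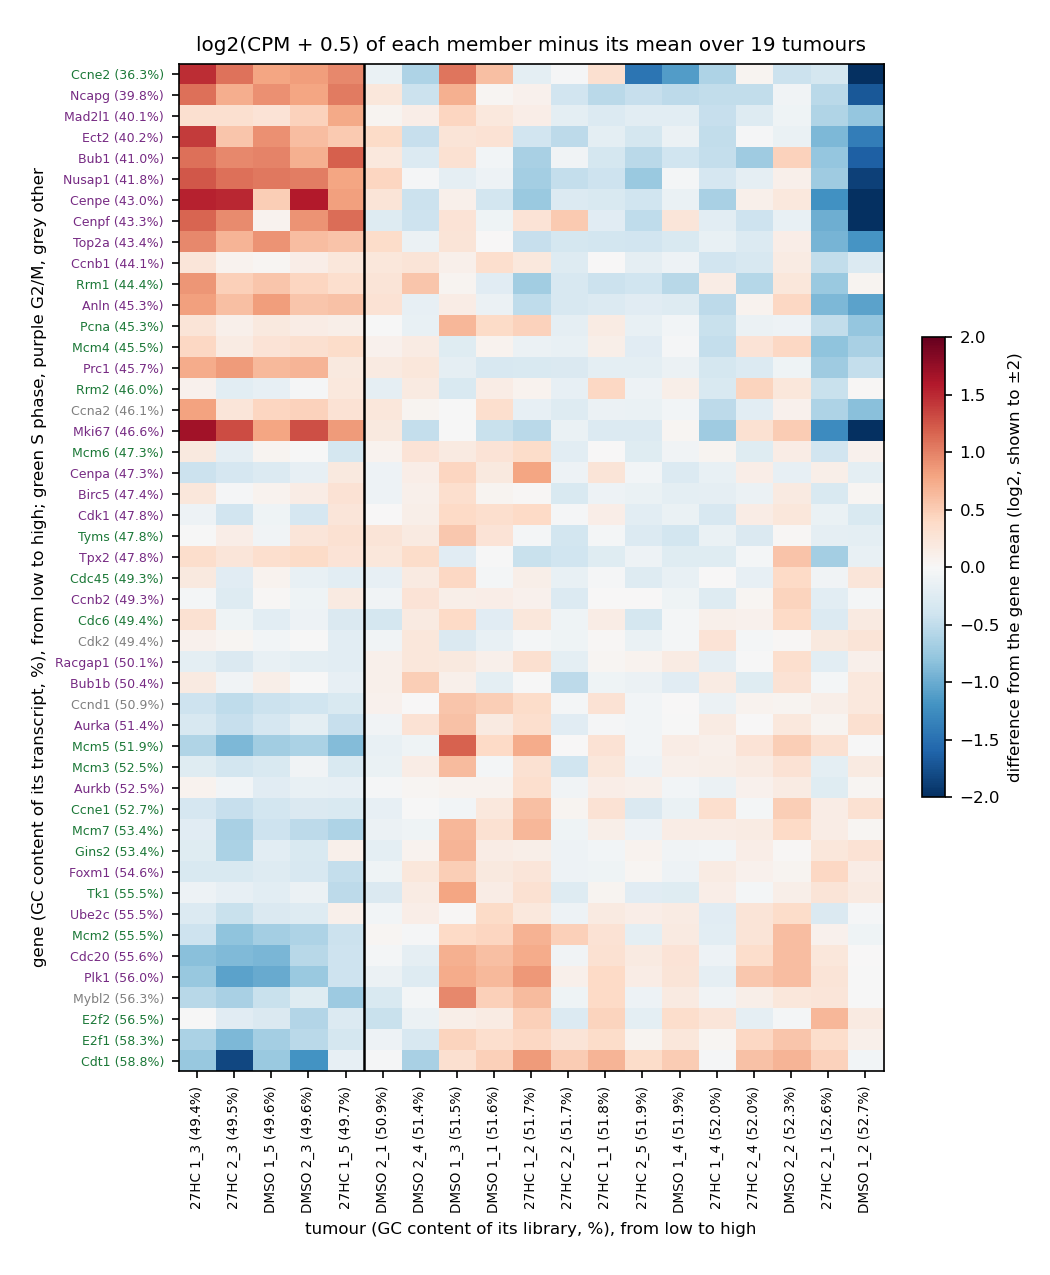
Level of each of the 48 genes (rows, ordered by the GC content of the transcript) in each of the 19 tumours (columns, ordered by the GC content of the library), as log2(CPM + 0.5) minus the mean of the gene, with colours from -2 to 2. Left of the black line, in the 5 low-GC libraries, the upper rows are red and the lower rows blue, and S phase (green) and G2/M (purple) names stand both above and below.

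The difference in composition is visible in the coding sequences themselves. Shown are 90 bases from the middle of the coding sequence of 2 mitotic genes that were high in the low-GC libraries and of a mitotic and a replication gene that were low in them, with G and C in capitals, counted from 1 at the start codon of the longest coding transcript in GENCODE M21.
Ncapg, coding bases 1462 to 1551: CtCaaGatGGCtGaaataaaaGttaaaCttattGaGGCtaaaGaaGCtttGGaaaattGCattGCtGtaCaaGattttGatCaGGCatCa
Cenpe, coding bases 3661 to 3750: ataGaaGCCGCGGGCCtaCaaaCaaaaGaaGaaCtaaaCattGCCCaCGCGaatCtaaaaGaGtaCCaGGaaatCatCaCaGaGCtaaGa
Plk1, coding bases 859 to 948: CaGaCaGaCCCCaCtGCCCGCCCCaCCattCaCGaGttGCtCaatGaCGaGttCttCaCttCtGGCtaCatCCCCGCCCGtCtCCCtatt
Cdt1, coding bases 790 to 879: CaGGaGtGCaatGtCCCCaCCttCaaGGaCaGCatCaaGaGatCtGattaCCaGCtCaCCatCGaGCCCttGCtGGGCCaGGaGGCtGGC
G or C makes up 31 of the 90 bases shown of Ncapg (chr5:45669919-45700546 on GRCm38) and 39 of those of Cenpe (chr3:135212537-135273611), and 52 of those of both Plk1 (chr7:122159439-122169873) and Cdt1 (chr8:122568015-122573554). Over the whole coding sequence the share is 40.3% in Ncapg, 42.7% in Cenpe, 56.4% in Plk1 and 62.5% in Cdt1. Ncapg encodes a subunit of condensin, which compacts mitotic chromosomes. Its level was 37.1, 33.9, 42.4, 40.6 and 32.6 CPM in the 5 low-GC libraries (DMSO 1_5 and 2_3, then 27HC 1_3, 1_5 and 2_3), and the 14 others lay between 5.66 and 31.9 CPM. In the same 5 libraries Plk1, the kinase that drives mitotic entry and spindle assembly, was at 50.7, 60.6, 60.3, 76.2 and 48.1 CPM, and the others lay between 85.2 and 186 CPM. Both genes act in mitosis, and they separated the same libraries in opposite directions. Cenpe gave 56.7, 121, 117, 70.8 and 114 CPM in the 5, and 8.81 to 47.7 CPM in the others. Cdt1, which loads the helicase at origins, gave 49.3, 35.8, 48.5, 73.5 and 23.1 CPM in the 5, and 52.3 to 149 CPM in the others, with overlap.

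After a correction of each library for the GC content of its transcripts, the members still differed, by -0.89 to 1.12 on the log2 scale between the 5 low-GC libraries and the others, against -1.28 to 1.63 without it. On the high side Mki67 had 1.12 after 1.61 before, and Cenpe 0.77 after 1.63. Top2a had 0.20 after 1.02 and Ncapg 0.13 after 1.27. On the low side Mcm5, a helicase subunit, had -0.89 after -1.0, and Plk1 -0.59 after -1.09. Across the 48 genes r with GC content was -0.33 after the correction, and across all genes it was near 0, as the correction is built to make it. Mki67, Cenpf and Cenpe have the 3 longest transcripts of the set, 10061, 11130 and 7910 bases, and r between log2 transcript length and the corrected difference was 0.50 across the members and 0.06 across all genes. These coefficients are again descriptions, and the cause of the difference between libraries was not tested.

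**Figure D2:**
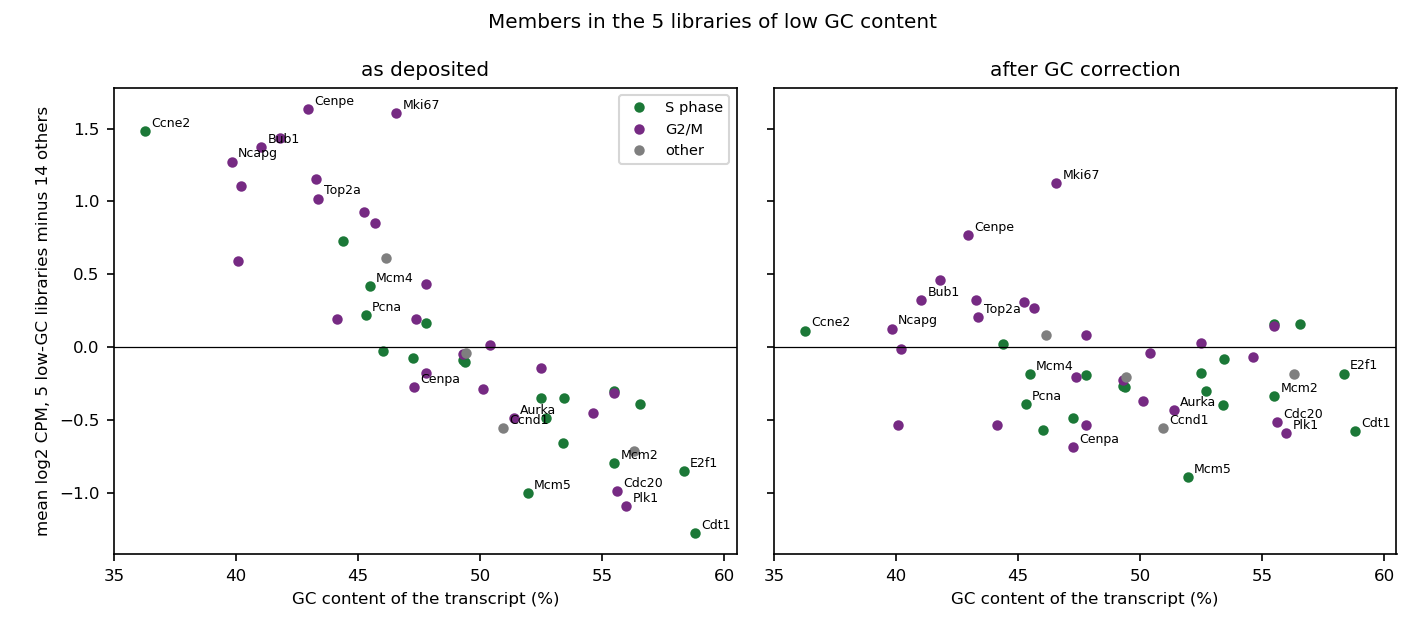
Mean log2 CPM of each of the 48 genes in the 5 low-GC libraries minus that in the 14 others, against the GC content of its transcript in percent, before (left) and after (right) the GC correction. Points are genes, coloured by phase. On the left the points run from Cenpe at 1.63 down to Cdt1 at -1.28, and on the right Mki67 stays highest at 1.12.

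Within the 14 other libraries the genes fell into sets that varied together to different degrees. Mki67 and Cenpe had an r of 0.98 over these 14 tumours, Plk1 and the checkpoint and anaphase gene Cdc20 an r of 0.97, and Plk1 and the replication gene Mcm5 an r of 0.84. By contrast Mki67 and Plk1, both mitotic, had an r of 0.30. Bub1 and Bub1b, the 2 checkpoint kinases of related name, had an r of 0.02, and the ribonucleotide reductase subunits Rrm1 and Rrm2 one of -0.06. The median r over all pairs was 0.33 within S phase, 0.42 within G2/M and 0.29 between the phases. With the members split at their median transcript GC content, 24 in each class, it was 0.56 among the AT-rich, 0.41 among the GC-rich and 0.20 between the classes, and after the GC correction 0.37, 0.43 and 0.39. The r of each named pair is without the GC correction, and the 14 libraries still ranged from 50.9% to 52.7% in GC content. The points share libraries and depth, so these values are descriptions.

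A level for each phase was computed per tumour as the mean of the members' log2 CPM, each centred on its mean over the 19 tumours. The S phase level ranged from -0.17 through a median of -0.058 to 0.42 in the 9 DMSO tumours, and from -0.30 through -0.057 to 0.29 in the 10 27HC tumours. The G2/M level ranged from -0.71 through 0.095 to 0.28 with DMSO and from -0.45 through -0.074 to 0.40 with 27HC. For both phases the ranges of the groups overlapped. DMSO tumour 1_3 was highest for S phase and DMSO tumour 1_2 lowest for G2/M. The S phase level minus the G2/M level was -0.51 to -0.36 in the 5 low-GC libraries and -0.18 to 0.58 in the 14 others, without overlap. After the GC correction it was -0.26 to -0.085 against -0.13 to 0.32, with overlap. In the 14 others the 2 levels had an r of 0.67 (rho 0.67), and 0.59 without the 2 tumours farthest from the median of the S phase level. Over the same 14, library GC content had an r of -0.67 with the G2/M level and -0.20 with the S phase level. Without the 2 tumours farthest from the median library GC content these were -0.49 and -0.30. No coefficient is given over all 19, since the low-GC libraries lie apart.

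**Figure D3:**
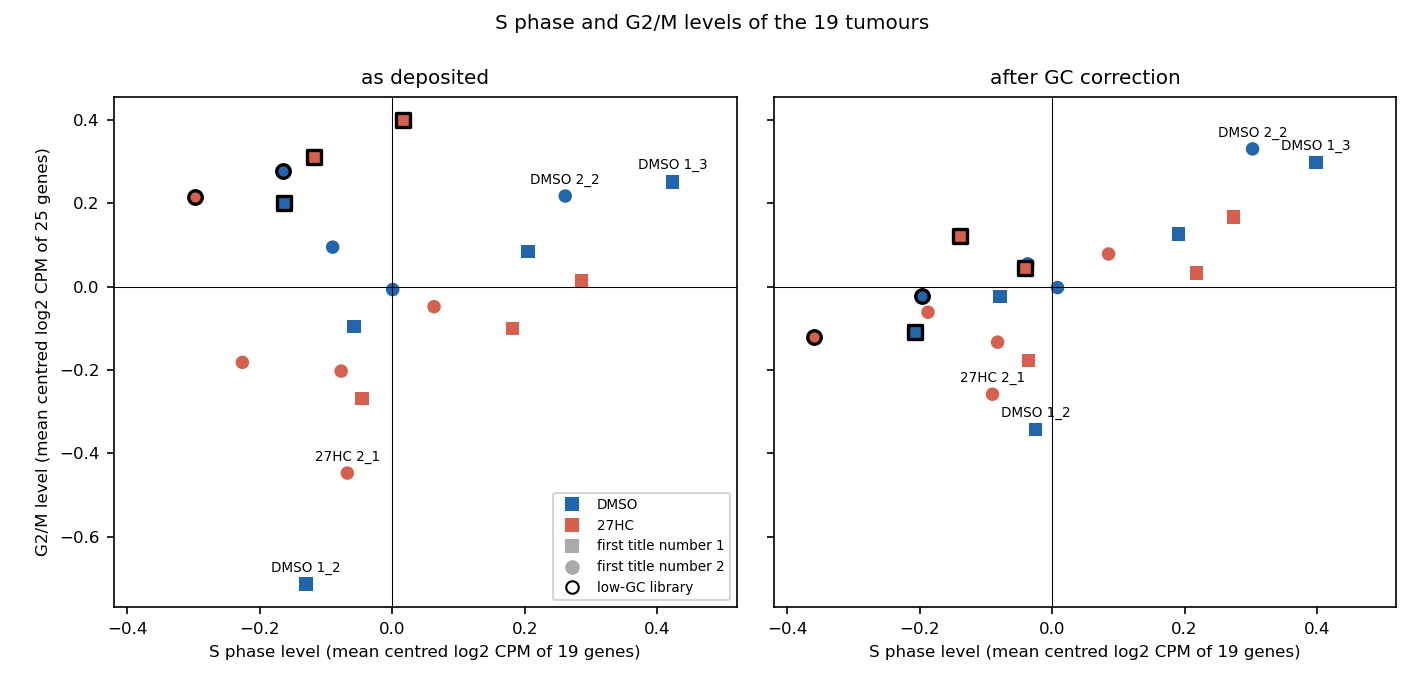
G2/M level against S phase level of the 19 tumours (mean centred log2 CPM of 25 and 19 genes), as deposited (left) and after GC correction (right). Blue is DMSO, red is 27HC, squares carry first title number 1 and circles 2, and a black rim marks a low-GC library. On the left the 5 rimmed points lie at G2/M levels of 0.20 to 0.40, and on the right at -0.12 to 0.12.

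The main comparison asked whether replication and mitosis genes differed between tumours given vesicles of 27HC-treated and of DMSO-treated neutrophils. In edgeR's quasi-likelihood test 0 of 15629 genes passed (0%), and so 0 of the 48, each with an adjusted p of 1.00. At an unadjusted p under 0.05 the test gave 0 of the 48 members and 2.27% of all genes (354). DESeq2 called 2 genes, 0.00753% of those it tested, and neither was a member. The estimates leaned to the low side with 27HC: 36 of the 48 were below 0 and their median was -0.083 (log2 fold change), while 46.1% of all genes were below 0 and their median was 0.014. The median was -0.079 for S phase (13 of 19 below 0) and -0.082 for G2/M (20 of 25 below 0). Members vary together over the same tumours, so these counts are not of independent genes and are a description. The level per tumour, taken over all 48 genes, had a mean of 0.035 (SD 0.21) with DMSO and -0.032 (SD 0.16) with 27HC. Single estimates ran from -0.26 for Tpx2 to 0.35 for Cenpf. The 95% interval of the fold change lay wholly within 1.5-fold in either direction for 34 of the 48 genes (53.2% of all genes), and within 2-fold for 45 (86.3%). For the other 14 members the interval reached past 1.5-fold on at least 1 side.

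**Figure D4:**
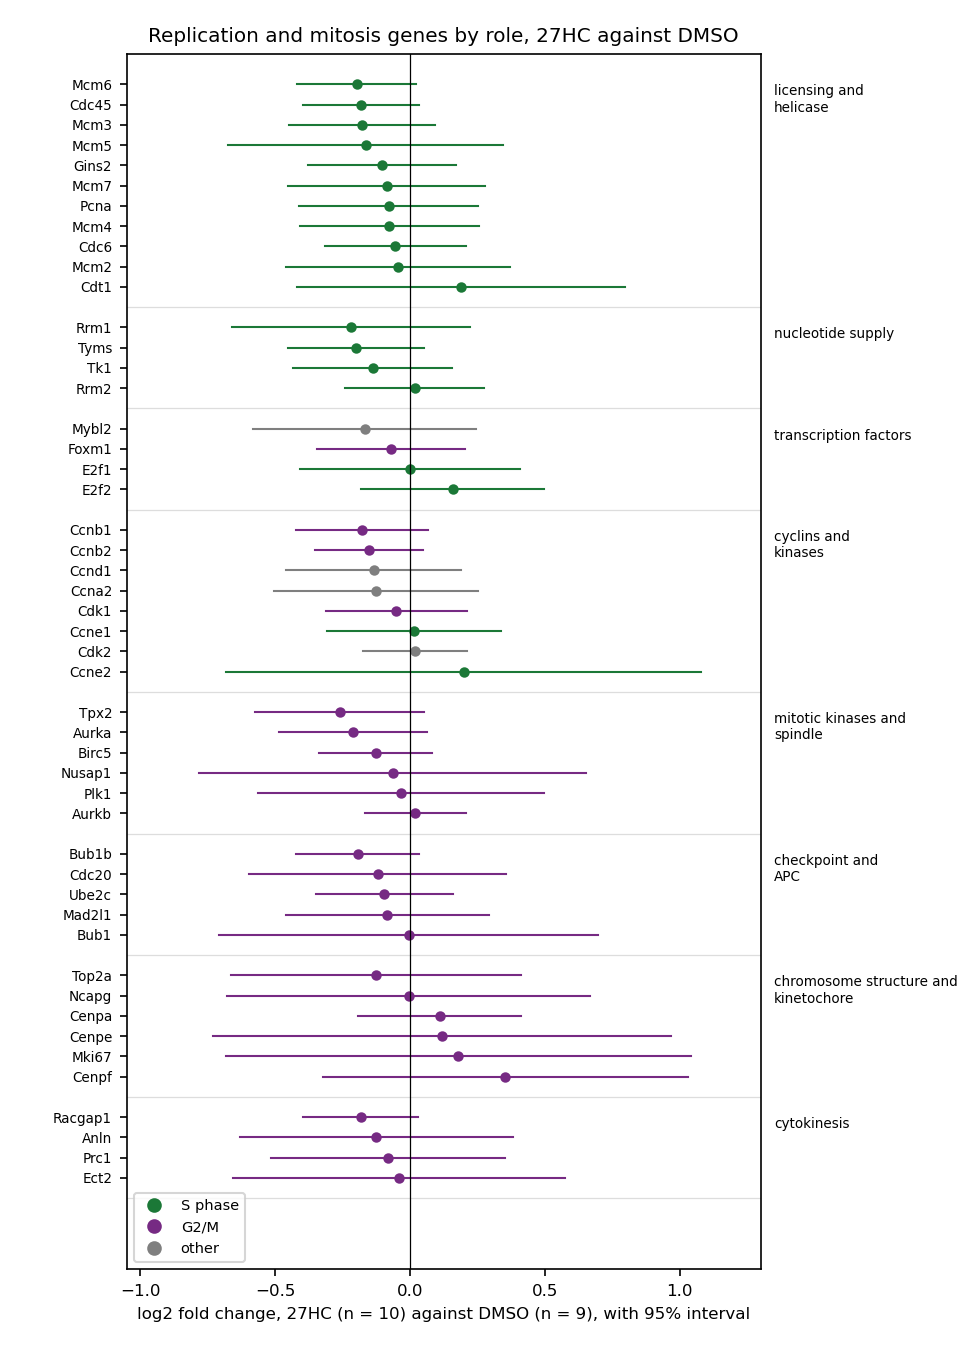
Log2 fold change of each of the 48 genes, 27HC (10 tumours) against DMSO (9 tumours), as points with the 95% interval as a line, by role and coloured by phase. Every interval crosses 0, 36 of the 48 points lie left of it, and the widest intervals belong to Ccne2, Mki67 and Cenpe.

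Of the 11 genes for origin licensing and the helicase, 10 were below 0 and 0 passed the test, and the median log2 fold change was -0.086. Mcm6, a subunit of the replicative helicase, had the smallest unadjusted p of all members, 0.0763 in edgeR. Its level was 92.3 to 117 CPM with DMSO (median 102) and 74.2 to 125 CPM with 27HC (median 84.1), a log2 fold change of -0.20 (SE 0.11). The 27HC tumours reached from below the DMSO range to above it, and 8 of 10 lay under the DMSO median. Cdc45, which joins the helicase when origins fire, was at 42.9 to 64.4 CPM (median 50.6) against 40.1 to 55.2 CPM (median 44.5), and its log2 fold change was -0.18 (SE 0.10). Pcna was at 65.4 to 178 CPM (median 112) against 80.4 to 155 CPM (median 112), a log2 fold change of -0.079 (SE 0.16). Mcm2 had medians of 189 CPM with DMSO and 178 CPM with 27HC and a log2 fold change of -0.044 (SE 0.20). The medians of these 2 genes were nearly equal, and their ranges overlapped. Cdt1 was the 1 gene of this role above 0, at 0.19 (SE 0.29), and varied most, from 35.8 to 132 CPM with DMSO and from 23.1 to 149 CPM with 27HC. The other 6, Mcm3, Mcm4, Mcm5, Mcm7, Gins2 and Cdc6, had estimates of -0.18 to -0.055.

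Of the 4 genes of nucleotide supply, 3 were below 0 (median -0.17). Rrm1, the large subunit of ribonucleotide reductase, was at 65.6 to 142 CPM with DMSO (median 114) and 57.3 to 179 CPM with 27HC (median 75.3), which gave -0.22 (SE 0.21) on the log2 scale. The 3 highest 27HC tumours, at 179, 135 and 122 CPM, were the 3 of that group with low-GC libraries. Tyms, which makes thymidylate, was at 24.4 to 46.1 CPM (median 35.7) against 24.3 to 39.0 CPM (median 29.6), with a log2 fold change of -0.20 (SE 0.12), and 9 of 10 27HC tumours lay under the DMSO median. Tk1 had medians of 129 and 113 CPM and a log2 fold change of -0.14 (SE 0.14), and Rrm2, the small subunit of the reductase, one of 0.018 (SE 0.12).

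The transcription factors showed no common direction, with 2 of 4 below 0. E2f1, an activator of S phase genes, was at 42.9 to 102 CPM with DMSO (median 74.0) and 36.7 to 92.1 CPM with 27HC (median 77.1), a log2 fold change of 0.0019 (SE 0.20). Its relative E2f2 had 0.16 (SE 0.16). Mybl2, which works with the late-cycle complex, had -0.17 (SE 0.20), and Foxm1, which drives the mitotic genes, -0.070 (SE 0.13).

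Of the 8 cyclins and cyclin-dependent kinases, 5 were below 0 (median -0.089). Ccnb1, the cyclin of mitotic entry, was at 39.9 to 61.0 CPM with DMSO (median 52.7) and 34.1 to 56.8 CPM with 27HC (median 45.5), and its log2 fold change was -0.18 (SE 0.12). Its relative Ccnb2 was at 46.5 to 67.1 CPM (median 50.3) against 40.9 to 55.8 CPM (median 48.7), with -0.15 (SE 0.096). For both, 7 of 10 27HC tumours lay under the DMSO median and the ranges overlapped. Ccnd1 was at 1091 to 2163 CPM (median 1521) against 1033 to 1892 CPM (median 1424), a log2 fold change of -0.13 (SE 0.16). Ccne1, an E-type cyclin of S phase entry, had 0.016 (SE 0.16), with medians of 16.5 and 17.4 CPM. Ccne2 had 0.20 with the widest interval of the set, -0.68 to 1.08. Cdk1, the kinase partner of the B cyclins, had -0.051 (SE 0.13), Cdk2 0.020 (SE 0.092) and Ccna2, the A-type cyclin of S phase and G2, -0.13 (SE 0.18).

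Of the 6 mitotic kinases and spindle genes, 5 were below 0 (median -0.095). Tpx2, which activates the kinase Aurka on the spindle, had the lowest estimate of all members. It was at 91.2 to 162 CPM with DMSO (median 127) and 67.0 to 139 CPM with 27HC (median 96.2), a log2 fold change of -0.26 (SE 0.15). Aurka was at 56.9 to 109 CPM (median 81.8) against 52.6 to 91.6 CPM (median 70.3), with -0.21 (SE 0.13), and 9 of 10 27HC tumours lay under the DMSO median. Nusap1, which binds spindle microtubules, had medians of 29.7 and 23.1 CPM and -0.064 (SE 0.34). Birc5 (survivin, a partner of Aurkb) had -0.13, Plk1 -0.033 and Aurkb 0.019.

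All 5 checkpoint and anaphase genes were below 0 and none passed the test (median -0.094). Bub1b, a kinetochore checkpoint protein, was at 53.4 to 88.3 CPM with DMSO (median 67.2) and 43.2 to 70.8 CPM with 27HC (median 59.2), a log2 fold change of -0.19 (SE 0.11), and 8 of 10 27HC tumours lay under the DMSO median. Ube2c had -0.094 (SE 0.12), Mad2l1, which holds back anaphase, -0.085 (SE 0.18), Cdc20 -0.12 (SE 0.23) and Bub1 -0.0044 (SE 0.34).

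Chromosome structure and kinetochore genes were the only role of the 8 with a median above 0 (0.12, 4 of 6 above 0), and that direction did not hold in other sets of tumours. The median of the 6 was -0.18 without the 5 low-GC libraries and -0.17 with muscle as a covariate (4 of 6 below 0 in both). In the fit of the 4 groups it was 0.49 within number 1 and -0.37 within number 2. Mki67 was at 21.9 to 393 CPM with DMSO (median 165) and 66.9 to 516 CPM with 27HC (median 140), so its medians and its log2 fold change of 0.18 (SE 0.41) differ in direction. Without 27HC tumour 1_3, which held the 516 CPM, its log2 fold change was -0.093. Cenpf was at 8.21 to 78.4 CPM (median 39.2) against 20.9 to 94.2 CPM (median 43.3), with 0.35 (SE 0.33), and Cenpa, the histone H3 variant of centromeres, at 50.3 to 82.3 CPM (median 54.6) against 45.1 to 106 CPM (median 62.5), with 0.11 (SE 0.15). Top2a had medians of 306 and 224 CPM and -0.13 (SE 0.26), Cenpe 0.12 (SE 0.41) and Ncapg -0.0044 (SE 0.32). The intervals of Mki67, Cenpe and Ncapg each reached beyond 1.5-fold in both directions.

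All 4 genes of cytokinesis were below 0 (median -0.10). Racgap1, part of the complex that places the cleavage furrow, was at 134 to 193 CPM with DMSO (median 164) and 125 to 192 CPM with 27HC (median 134), a log2 fold change of -0.18 (SE 0.10). Although the ranges were nearly the same, 9 of 10 27HC tumours lay under the DMSO median. Anln, a scaffold of the contractile ring, had -0.12 (SE 0.24), Prc1, which bundles the midzone microtubules, -0.082 (SE 0.21), and Ect2, which activates the furrow's GTPase, -0.041 (SE 0.30).

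The lean to the low side depended on which libraries were compared. Without the 5 low-GC libraries, 7 tumours against 7, the median was -0.22 for G2/M and -0.11 for S phase, and 40 of 48 members were below 0. At an unadjusted p under 0.05 edgeR then gave 5 members, Rrm1, Tyms, Ccnb1, Birc5 and Tpx2, all lower, beside 6.01% of all genes, and the smallest adjusted p among members was 0.787. In the 5 low-GC libraries alone, 3 against 2, the medians were 0.067 and 0.033. With the GC correction they were -0.12 and -0.094. With the mean centred log2 CPM of the skeletal muscle markers as a covariate they were -0.18 and -0.095, and 39 of 48 members were below 0. Leaving out 1 tumour at a time moved the S phase median between -0.14 (without 27HC tumour 1_2) and -0.011 (without DMSO tumour 1_3), and the G2/M median between -0.18 (without 27HC tumour 1_3) and -0.038 (without DMSO tumour 1_3). The direction of both medians held in all 19 of these fits. Relative to the median of all genes in the same fit, the S phase median lay between -0.15 (without 27HC tumour 1_2) and -0.029 (without DMSO tumour 1_3). The G2/M median lay between -0.14 (without 27HC tumour 1_5) and -0.056 (without DMSO tumour 1_3). For the fits by library GC content, GC correction and muscle, the medians and counts below 0 are not set beside those of all genes.

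The other genes of the pathway came from lists of 38 replication, 42 mitosis and 31 G1 entry and inhibitor genes, and none of these passed the test either. Of the replication genes 28 of 38 were below 0 (median -0.080), of the mitosis genes 30 of 42 (median -0.056) and of the G1 genes 17 of 31 (median -0.0074). The lowest p among replication genes belonged to Mcm10, which loads polymerase at origins, and Lig1, the ligase that joins lagging-strand fragments, at -0.18 (SE 0.11) and -0.18 (SE 0.12) on the log2 scale. Among the mitosis genes they belonged to Cdc25c, the phosphatase that activates Cdk1, with -0.33 (SE 0.15), and Tacc3, a spindle protein, with -0.17 (SE 0.082). Among the G1 genes they belonged to Wee1, the kinase that holds Cdk1 inactive, with 0.34 (SE 0.16), and Cdkn1c, a kinase inhibitor, with 0.53 (SE 0.25) at 0.62 to 2.79 CPM. The unadjusted p of Cdc25c, Wee1 and Cdkn1c was 0.0416, 0.0430 and 0.0438 in edgeR, and the adjusted p of each was 1.00. The inhibitor Cdkn1a was at medians of 112 CPM with DMSO and 108 CPM with 27HC (log2 fold change 0.011, SE 0.28), and Cdkn2a and Cdkn1b had 0.0014 (SE 0.20) and -0.046 (SE 0.14). The G1 kinase Cdk6 had 0.30 (SE 0.15), with medians of 97.1 and 121 CPM, and Cdk4, Ccnd2 and Rb1 lay between -0.034 and 0.038.

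Tumours whose titles carry a first number of 2 were compared with those that carry a 1, averaged over the treatments. In edgeR's test 0 of 16906 genes passed (0%) and 0 members did. At an unadjusted p under 0.05 there were 0 members and 2.5% of all genes, and DESeq2 called 41 genes (0.218%), none of them a member. Of the S phase genes 18 of 19 were below 0, with a median log2 difference of -0.12, and of the G2/M genes 16 of 25, with a median of -0.052, beside a median of 0.0030 over all genes. Only Mcm4 of the S phase genes lay above 0, at 0.081. E2f2 had the smallest p, 0.0573, with a log2 difference of -0.29. The low-GC libraries were 3 of 10 with number 1 and 2 of 9 with number 2, and without them the medians were -0.14 and -0.0078. At an unadjusted p under 0.05 edgeR then gave 3 members, E2f2 and Mybl2 lower and Tpx2 higher, beside 7.07% of all genes, and the adjusted p of each was 0.646. Leaving out 1 tumour moved the S phase median between -0.19 (without DMSO tumour 2_2) and -0.074 (without DMSO tumour 1_3), and the G2/M median between -0.091 (without DMSO tumour 1_2) and -0.012 (without 27HC tumour 1_5).

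The difference between 27HC and DMSO was then compared between the numbers, by an interaction term in the fit of the 4 groups. No gene passed in edgeR (0%), and DESeq2 called 2 genes (0.00755%), neither a member. At an unadjusted p under 0.05 edgeR gave 4 members, Mcm6, Ccnb1, Bub1b and Tpx2, beside 1.55% of all genes (262 of 16906), and the adjusted p of each was 0.908. All 4 estimates were negative, which means that the 27HC-minus-DMSO difference was lower in tumours numbered 2 than in those numbered 1. Over all genes the median of this term was -0.11. Relative to that shift the median of the G2/M genes was -0.41 and that of the S phase genes -0.10, from medians of -0.52 (22 of 25 below 0) and -0.22 (13 of 19). With the GC correction the medians were -0.19 and -0.14, over all genes -0.0040, and 1 member, Bub1b, kept an unadjusted p under 0.05. The S phase median was 0.011 without DMSO tumour 1_2 and -0.023 without DMSO tumour 2_2, and the G2/M median -0.29 without DMSO tumour 1_2. Without the 5 low-GC libraries the G2/M median was -0.27 and the S phase median -0.16, not set beside that of all genes.

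Within number 1 the G2/M genes had a median log2 fold change of 0.088 for 27HC against DMSO, 7 of 25 below 0, and the S phase genes one of -0.016. The G2/M median was -0.030 without DMSO tumour 1_2 and -0.014 with the GC correction. At an unadjusted p under 0.05 there were 0 members and 1.61% of all genes. With 1 tumour left out, the G2/M median within number 1 was also taken relative to the median of all genes. It then lay between -0.012 (without 27HC tumour 1_5) and 0.12 (without 27HC tumour 1_4). Within number 2 the medians were -0.36 for G2/M (24 of 25 below 0) and -0.19 for S phase (16 of 19), and 10 of 48 members had an unadjusted p under 0.05, all lower, beside 2.64% of all genes. These were Mcm6, Cdc45, Rrm1, Tyms, Ccnb1, Ccnb2, Bub1b, Birc5, Tpx2 and Racgap1, and the adjusted p of each was 0.957 in edgeR. With the GC correction 3 of the 10, Rrm1, Bub1b and Tpx2, stayed under 0.05 unadjusted (2.76% of all genes), and without the low-GC libraries 14 of the 48 members had such a p (12.8% of all genes). The mean G2/M level of the tumours numbered 2 was 0.15 with DMSO and -0.13 with 27HC. After the GC correction it was 0.090 and -0.099, with medians of 0.026 and -0.12 and DMSO tumour 2_2 at 0.33. The mean S phase level was 0.0018 and -0.12, and 0.020 and -0.13 after the correction. Of all members 44 were below 0 within number 2, and 31 without DMSO tumour 2_2. The S phase median was then -0.047, with 10 of 19 below 0. The G2/M median lay between -0.55 (without 27HC tumour 2_3) and -0.22 (without 27HC tumour 2_1). Relative to the median of all genes in the same fit, it lay between -0.41 (without 27HC tumour 2_3) and -0.23 (without 27HC tumour 2_1). The S phase median relative to all genes lay between -0.22 (without DMSO tumour 2_3) and -0.032 (without 27HC tumour 2_3). The counts below 0 within number 1 and within number 2 are not set beside the share of all genes.

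**Figure D5:**
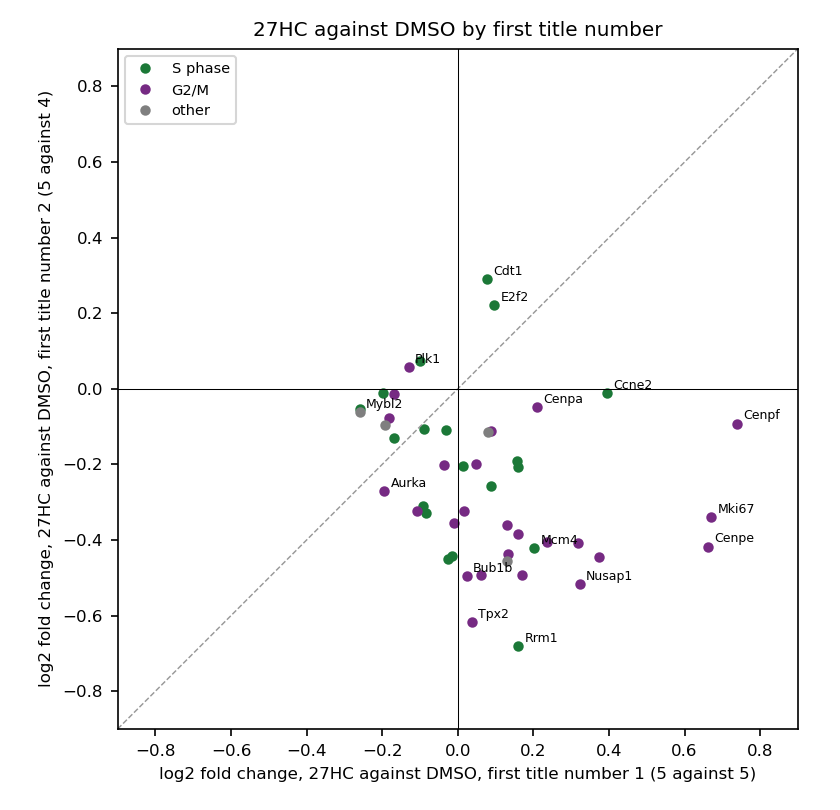
Log2 fold change of each of the 48 genes, 27HC against DMSO, in tumours with first title number 2 (vertical axis, 5 against 4 tumours) against that in tumours with number 1 (horizontal axis, 5 against 5). Colours give the phase and the dashed line marks equal values. Of the 48 points 44 lie below 0 on the vertical axis and 19 on the horizontal axis, and Mki67, Cenpe and Cenpf lie farthest right.

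The values behind these numbers show how few tumours they rest on. With number 2, Mcm6 was at 102, 107, 96.3 and 117 CPM in the 4 DMSO tumours and at 74.2, 83.1, 85.2, 81.4 and 81.4 CPM in the 5 27HC tumours. With number 1 it was at 117, 102, 110, 92.3 and 101 CPM with DMSO and at 96.8, 125, 111, 100 and 75.8 CPM with 27HC. Its groups were thus apart with number 2 and mixed with number 1. Ccnb1 was at 56.6, 53.9, 52.7 and 57.6 CPM with DMSO and at 34.1, 40.1, 50.5, 38.7 and 42.3 CPM with 27HC in the tumours numbered 2. Bub1b was at 67.2, 76.5, 62.1 and 88.3 CPM against 60.9, 43.2, 59.6, 52.4 and 57.7 CPM. These 3 were the only members whose groups did not overlap with number 2, all lower with 27HC, beside 1.16% of all genes, and with number 1 there were 0 members and 0.13% of all genes. Tpx2 overlapped by a single tumour, with 127, 162, 141 and 140 CPM for DMSO and 67.0, 82.1, 129, 106 and 101 CPM for 27HC, where the 129 CPM is the low-GC library 2_3.

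Outside all lists, the genes most like the members were sought among 11883 protein-coding genes by Pearson's r with the mean of the centred members over the 19 tumours. The 5 highest were Magohb, a subunit of the exon junction complex, at 0.84, Zwint, a kinetochore protein, at 0.84, Snrpd1, a core protein of the spliceosome, at 0.83, Prpsap2, a partner of phosphoribosyl pyrophosphate synthetase, at 0.82, and Nsmce4a, of the SMC5/6 complex, at 0.82. Over the 14 other libraries alone the r of these 5 was between 0.81 and 0.93. The 5 lowest were Ago1, an Argonaute protein, at -0.81, Abr at -0.81, Slc4a3, an anion exchanger, at -0.79, Srgap3 at -0.78 and Xdh, xanthine dehydrogenase, at -0.78. They were picked for these values, which stand as a description of the 19 tumours.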

How the data were processed

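RNA was measured in 19 whole tumours. The authors deposited 1 table of expected counts per gene, made with kallisto 0.44.0 on GRCm38, with edgeR and limma also listed, per the submitters' processing notes. The settings of these tools are not known here. The expected counts were rounded to whole numbers. The main tests were edgeR 4.0.16 quasi-likelihood fits (R 4.3.3) with TMM scaling, filterByExpr and Benjamini-Hochberg adjustment at 0.05 over all genes tested: 15629 in the fit of 2 groups and 16906 in the fit of 4 groups (treatment by first title number). CPM and log2 CPM (prior count 2, and 0.5 added in the heat map) were computed from the counts, and the GC correction is a loess per library (span 0.3) on the GC content of the longest coding transcript. DESeq2 1.42.0, other scaling, filters, leaving out tumours and a replicate block were the alternatives. The split by library GC content, the GC correction in the fit of 4 groups and of the levels per tumour, and the alternatives for the medians by title number were chosen after seeing the data. The tests were tried on simulated data. No 2 tumours of a group were alike within counting noise: the lowest chi-square per degree of freedom between them was 39.0.

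The members and lists were chosen with earlier results of these data known. Genes with full statistics were 8 of wide interest (Mki67, Top2a, Pcna, Mcm2, Ccnb1, Ccnd1, Ccne1 and E2f1), and in each role the 2 with the smallest p for 27HC against DMSO, the 1 with the smallest p between title numbers and the 1 with the largest SD. Of the other pathway genes they were the 2 with the smallest p in each list and 7 cell cycle regulators. Of genes in no list they were the 5 most and 5 least like the members.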

Additional observations from a re-analysis of the deposited data

Results flagged for a closer look

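In the 9 DMSO tumours, 4 values of DMSO tumour 1_2 lay apart from the rest at the low end. Its G2/M level was -0.7132, and the next tumour was at -0.09597. Its log2 CPM of Mki67 was 4.455 with the next at 6.859, that of Nusap1 was 2.985 with the next at 4.733, and that of Cenpf was 3.048 with the next at 4.971. The library of DMSO tumour 1_2 had the highest GC content of the 19, 52.7%. After the GC correction its G2/M level was -0.34, and the next DMSO tumour, 1_5, was at -0.11. DMSO tumour 1_3 lay apart at the high end for Tk1, at 7.689 log2 CPM with the next at 7.08. These were 5 of 92 groups of values examined, and chance alone gives about 1 in 20. The groups share tumours, and the G2/M level holds Mki67, Nusap1 and Cenpf, so they are not independent. That rate thus cannot decide whether chance gave these flags.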

How the results depend on the processing

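No member passed the adjusted threshold in any of the 30 settings tried for 27HC against DMSO, 26 for the title number and 26 for the interaction, where the smallest adjusted p of a member was 0.787, 0.646 and 0.504. Over all genes DESeq2 called 2 for 27HC against DMSO, 2 for the interaction and 41 for the title number, against 0 in edgeR, and the cause was not tested. Leaving out 1 tumour gave 0 to 1 genes for the title number, with 1 gene without 27HC tumour 1_4. It moved the S phase median of the interaction between -0.268 and 0.011, and the GC correction moved the G2/M median of the interaction to -0.193. With the replicate block on title numbers 0 genes passed for 27HC against DMSO, with medians of -0.071 for S phase and -0.086 for G2/M. Of 9 pairs of same-numbered tumours 5 had a correlation over 0.1 (range -0.43 to 0.78). The highest was that of pair 2_3, where both libraries are low-GC, as they are in pair 1_5, at 0.29. The lowest was that of pair 1_3, where only the 27HC library is. Library GC content was not separated from these values, so they cannot show whether the numbers pair the samples. The numbers were not taken to pair them. For the 43 named genes 13 of 1290 values moved by 1 SD or more, 4 in number 1 alone, 5 in number 2 alone and 4 in the low-GC libraries alone. The sign turned for 16 of them when 1 tumour was left out and for 29 in any alternative. With 9 and 10 tumours, the 95% interval of the fold change reached past 1.5-fold for 14 of the 48 members, all of which were counted in every tumour.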
